A study of Arabidopsis thaliana with 33 samples.

Results

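The 10 genes described here are heat-induced genes of Arabidopsis thaliana, namely the heat shock transcription factor HSFA2 (AT2G26150) and 9 heat shock protein (HSP) genes. The 9 are HSP101 (AT1G74310), HSP70-4 (AT3G12580), HSP90.1 (AT5G52640), HSP18.2 (AT5G59720), HSP17.4 (AT3G46230), HSP17.6C (AT1G53540), HSP17.6II (AT5G12020), HSP17.6A (AT5G12030) and HSP21 (AT4G27670). They were chosen by name and looked up by locus in 3 RNA-seq tables that together list 23044 genes. All 10 were listed in each table, so no row was absent. The genotypes were arp6 (allele arp6-1), brm (allele brm-1), the double mutant that carries both alleles (arp6;brm), and wild type (WT). Shoots at the stage of 4 to 5 leaves came from plants grown on soil in long days. No heat treatment is named in the labels, so these are levels in unstressed shoots as far as the labels say. ARP6 belongs to the SWR1 complex, which exchanges H2A for the histone variant H2A.Z. BRM, or BRAHMA, is the motor subunit of a remodeller of the SWI/SNF family.

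When plants are heated, heat shock factors bind heat shock elements in promoters and switch on chaperone genes. HSFA1 proteins start this response in Arabidopsis, and HSFA2, itself a target of HSFA1, sustains it. H2A.Z nucleosomes at HSP70 are known from earlier work on this plant as part of how warmth is sensed.

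RNA was measured in 3 libraries of nuclear RNA per genotype, H2A.Z by chromatin immunoprecipitation (ChIP) in 2 libraries each of arp6, brm and WT, and nucleosomes by micrococcal nuclease (MNase) digestion in 2 libraries per genotype. H2A.Z ChIP of the double mutant was not analysed here. Deletions were called in 1 library of arp6 genomic DNA from 50 pooled plants, with no genomic DNA library of the other genotypes. The authors' deposited RNA-seq tables give 1 fold change per gene with no value per library. The spread of a gene among the 3 libraries is thus not shown, and the p-value reflects it only indirectly. In the authors' deposited tables the targeted genes were low in their own mutants. ARP6 had a log2 fold change of -5.73 in arp6 and -5.60 in the double mutant, and BRM of -5.64 in brm and -8.87 in the double mutant, in the authors' deposited tables. The leaf gene RBCS1A had an average log2 CPM of 12.3, 12.0 and 12.2 in the authors' deposited arp6, brm and double-mutant tables, and of 3 root hair markers only PRP3 was listed, at -2.79, -2.94 and -3.17. The ChIP libraries held 5553946 to 15765419 tags.

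None of the 10 genes passed the test in any mutant. By the authors' deposited edgeR tables, at a Benjamini-Hochberg adjusted p under 0.05, 0 of 10 were called in arp6, where 6.03% of all 22046 genes were called. In brm 0 of 10 were called, against 13.8% of 21925 genes, and in the double mutant 0 of 10, against 13.3% of 22352 genes in the authors' deposited tables. At an unadjusted edgeR p under 0.05 the counts were 0, 0 and 1 of 10, against 16.3%, 24.1% and 25.0% of all genes. An average log2 CPM (counts per 1e6 reads) under 0 was found for 6 of the 10 in each of the tables, against 27.3%, 26.9% and 29.1% of all genes. Of all genes under 0, edgeR called 160 of 6014 in arp6, 162 of 5899 in brm and 394 of 6508 in the double mutant, and of genes at 0 or above 1170 of 16032, 2855 of 16026 and 2579 of 15844, in the authors' deposited tables. The 10 genes had no call in either class, 6 under 0 and 4 at or above it. A miss in the test does not show that a gene was unaltered. In whole shoots, fewer cells that express a gene and less RNA per cell cannot be told apart.

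HSP90.1, HSP70-4, HSP101 and HSP18.2 were the 4 genes whose average log2 CPM was 0 or more. For these, approximate group levels in CPM were derived from the deposited average and fold change, and approximate standard errors (SE) and 95% intervals from the deposited p-value. CPM is not per length, so levels are not compared between genes. The totals behind CPM include entries that name no gene, with 66.9% of counts for arp6, 69.3% for brm and 70.7% for the double mutant. Levels are thus lower than over genes alone, and the limit of 0 on the log2 scale rests on the same totals.

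HSP90.1, the heat-inducible cytosolic HSP90, had about 6.14 CPM in arp6 against 5.47 in WT, 4.83 in brm against 5.08 in WT, and 3.68 in the double mutant against 4.95 in WT, derived from the authors' deposited tables. The log2 fold changes in the authors' deposited tables were 0.17 (SE 0.33), -0.07 (SE 0.36) and -0.43 (SE 0.35). All 3 intervals included 0, and the widest reach was to -1.11 in the double mutant.

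HSP70-4, a heat-inducible cytosolic HSP70, was derived from the authors' deposited tables as 4.13 CPM in arp6 against 3.25 in WT, 3.43 in brm against 3.03 in WT, and 3.75 in the double mutant against 2.93 in WT. Its log2 fold changes in the authors' deposited tables were 0.34 (SE 0.33), 0.18 (SE 0.35) and 0.36 (SE 0.39), with adjusted p of 0.686, 0.830 and 0.641 by edgeR. The point estimates were above 0 in all 3 mutants, which share the same WT libraries, and each interval reached below 0. The upper bounds of 1.00, 0.87 and 1.12 on the log2 scale are the largest rises inside the approximate intervals.

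HSP101, the ClpB-type disaggregase needed for acquired thermotolerance, was derived from the authors' deposited tables as 1.86 CPM in arp6 against 2.73 in WT, 2.39 in brm against 2.53 in WT, and 1.39 in the double mutant against 2.48 in WT. Its log2 fold change in the double mutant was -0.83 (SE 0.39), with an unadjusted p of 0.0318 and an adjusted p of 0.149 by edgeR in the authors' deposited table. It was the single gene of the 10 under an unadjusted p of 0.05, and it did not pass the adjustment. In the authors' deposited arp6 and brm tables its log2 fold changes were -0.56 (SE 0.47) and -0.09 (SE 0.49).

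HSP18.2, a class I cytosolic small HSP, had 2.43 CPM in arp6 against 1.60 in WT, 0.85 in brm against 1.51 in WT, and 2.25 in the double mutant against 1.44 in WT, derived from the authors' deposited tables. The log2 fold changes in the authors' deposited tables were 0.60 (SE 0.51), -0.83 (SE 0.67) and 0.64 (SE 0.50), with adjusted p of 0.629, 0.502 and 0.471 by edgeR. Its estimate lay below 0 in brm and above 0 in the other genotypes, and the difference between mutants was not tested, since the tables compare each only with WT.

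The other 6 genes had an average log2 CPM under 0 in all 3 tables. HSFA2, the transcription factor, had an average log2 CPM of -1.41, -1.64 and -1.80 in the authors' deposited arp6, brm and double-mutant tables. These were the highest values of the 6, but they are not per length and do not rank abundance. Its log2 fold changes there were 1.02, 0.83 and 0.58, with adjusted p of 0.748, 0.807 and 0.770 by edgeR in the authors' deposited tables. The values lean one way in all 3, but the tables share the WT libraries and none passed.

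HSP21, the chloroplast small HSP, had an average log2 CPM of -3.68, -3.70 and -3.18 in the authors' deposited tables, where its log2 fold changes were -4.32, -4.22 and 0.26. HSP17.4, a class I small HSP, stood at -3.99, -4.00 and -3.67 in the authors' deposited tables, where its log2 fold changes were -3.41, -3.31 and 0.10. HSP17.6C, also class I, stood at -2.26, -3.45 and -2.16, and its log2 fold changes there were 1.32, -4.77 and 1.76, again from the authors' deposited tables. None of these large fold changes passed the test. The smallest adjusted p among the 3 genes was 0.474 by edgeR, for HSP17.6C in brm.

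The class II small HSP genes HSP17.6II and HSP17.6A are neighbours on chromosome 5. HSP17.6II had an average log2 CPM of -2.46, -2.58 and -2.45 in the authors' deposited tables, where its log2 fold changes were -0.06, -0.20 and 0.15. HSP17.6A stood at -3.10, -2.53 and -3.75 in the authors' deposited tables, where its log2 fold changes were 0.71, 2.09 and -3.91. Small HSP genes resemble one another in sequence, and how the counting treated reads that fit several copies is not given in the sources used here.

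**Figure D1:**
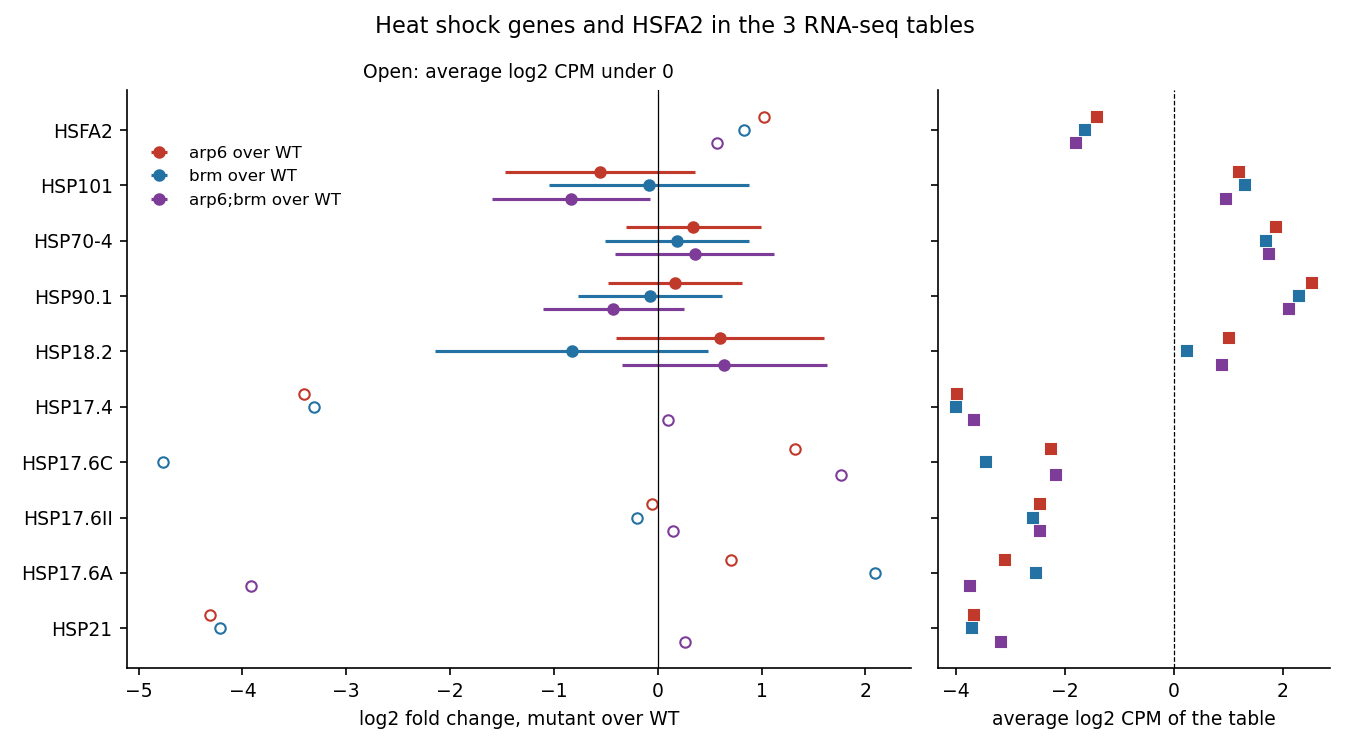
Log2 fold change over WT (left) and average log2 CPM (right) of the 10 genes in the authors' deposited RNA-seq tables. Filled points lie at 0 or above on the right and carry approximate 95% intervals, and open points lie under 0 and carry none. The 6 genes with open points hold all the large fold changes, down to -4.77, and none of the 10 was called.

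Genes with the pattern most like that of HSFA2 over the 3 fold changes were looked for among the 15392 genes whose average log2 CPM was 0 or more in each table. The nearest by Euclidean distance were AT5G57100 at 0.116, CAMBP25 at 0.121, GONST1 at 0.130, AT1G27200 at 0.134 and NLA at 0.141 log2 units. In all, 138 genes lay within 0.5. HSFA2 itself lay under that level, and none of its 3 fold changes passed the test. The number of genes as near to other genes was not counted, and shared regulation was not tested.

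Other genes of the heat response were counted from lists of known family members, beside the shares of all genes. Of all genes 3.01% rose and 3.02% fell in arp6, 7.62% rose and 6.14% fell in brm, and 6.16% rose and 7.14% fell in the double mutant, in the authors' deposited edgeR tables. Of 16 listed heat shock factors, 1 rose in arp6, 2 rose in brm, and 1 rose and 1 fell in the double mutant. HSFA8 rose in arp6 by a log2 fold change of 0.72 (SE 0.20) in the authors' deposited table. HSFC1 rose in brm by 1.72 (SE 0.31) and in the double mutant by 0.90 (SE 0.27), and HSFA4A rose in brm by 0.93 (SE 0.33), in the authors' deposited tables. HSFA6B fell in the double mutant, with a log2 fold change of -7.61 at an average log2 CPM of -1.43, in the authors' deposited table.

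Small HSPs outside the 10 held more calls. In arp6 3 of 12 rose, in brm 1 of 11 rose, and in the double mutant 3 of 13 rose and 1 fell. HSP14.7 rose by 4.08 (SE 0.71) in arp6 and 4.61 (SE 0.60) in the double mutant, and HSP23.5, a mitochondrial small HSP, by 2.33 (SE 0.55) and 3.17 (SE 0.43), in the authors' deposited tables. Both lie on chromosome 5. Deletions called in arp6 numbered 30 within 500 kb of HSP14.7 and 5 within 500 kb of HSP23.5. At the 10 genes they numbered 0 to 14, a range that HSP14.7 exceeded and HSP23.5 did not. The part of these deletion calls in the values was not tested. HSP15.4 rose by 0.78 (SE 0.23) in arp6 and 1.37 (SE 0.23) in brm in the authors' deposited tables. HSP17.8 rose and HSP17.6A-CI fell in the double mutant, with log2 fold changes of 2.03 and -3.98, both at an average log2 CPM under 0 in the authors' deposited table.

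Among the other chaperones, the calls in brm were lower and those in arp6 and the double mutant higher. Of 17 other HSP70 genes 3 fell in brm, the chloroplast HSP70-6 and HSP70-7 and the mitochondrial HSP70-9, with log2 fold changes of -0.62 (SE 0.23), -0.98 (SE 0.22) and -0.65 (SE 0.20) in the authors' deposited table. In the double mutant 5 of 16 rose, among them HSC70-2 by 1.45 (SE 0.20) and the cytosolic HSC70-1 by 0.48 (SE 0.16), and in arp6 HSC70-2 alone rose, by 1.42 (SE 0.21), in the authors' deposited tables. The other 3 in the double mutant were BIP3, an endoplasmic reticulum chaperone, at 3.38, HSP70-15 at 0.60 (SE 0.16) and HSP70-14 at 0.48 (SE 0.17) in the authors' deposited table. Of 8 other HSP90 and ClpB genes 5 fell in brm, 1 rose in arp6 (HSP90.3, 0.64, SE 0.19) and 0 were called by edgeR in the double mutant, where 0 also had an unadjusted p under 0.05 in the authors' deposited tables. Those that fell in brm were HSP90.5 at -1.03 (SE 0.23), HSP90.6 at -0.93 (SE 0.21), CLPB3 at -0.68 (SE 0.21), HSP90.2 at -0.67 (SE 0.19) and HSP90.7 at -0.50 (SE 0.18) on the log2 scale in the authors' deposited table. In that same brm table the leaf gene RBCS1A fell, with a log2 fold change of -0.61 (SE 0.19), and its part in the chaperone values was not tested.

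Of the co-chaperones and other heat-induced genes, 1 of 22 fell in arp6, 1 of 23 rose in brm and 2 of 22 fell in the double mutant. ROF2, a co-chaperone that binds HSP90, fell in arp6 and in the double mutant, with log2 fold changes of -6.53 (SE 0.60) and -4.26 (SE 0.44) in the authors' deposited tables, and a deletion call in arp6 lay 0.656 kb from it. Within 500 kb of ROF2 there were 27 deletion calls. Of its nucleosome positions, 7 were lower in arp6 and 9 in the double mutant, against 0 in brm, by the call rule given below. The part of deletions in the ROF2 values was not tested. SGT1A rose by 1.21 (SE 0.30) in brm, and GOLS1, a galactinol synthase, fell in the double mutant, at -1.22 (SE 0.40) on the log2 scale, in the authors' deposited tables. Rapid stress genes, which answer touch, wounding and handling within minutes, were called in the following numbers: 7 of 8 rose in arp6, 1 rose and 2 fell in brm, and 6 fell in the double mutant. This list, like the others, was chosen with earlier results of these data known, so its counts are no independent test. TCH3, the 1 that rose in brm, had log2 fold changes of 1.55 (SE 0.20), 1.68 (SE 0.25) and -1.93 (SE 0.22) in the authors' deposited tables. The part of handling in any value of the 10 genes was not tested.

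**Figure D2:**
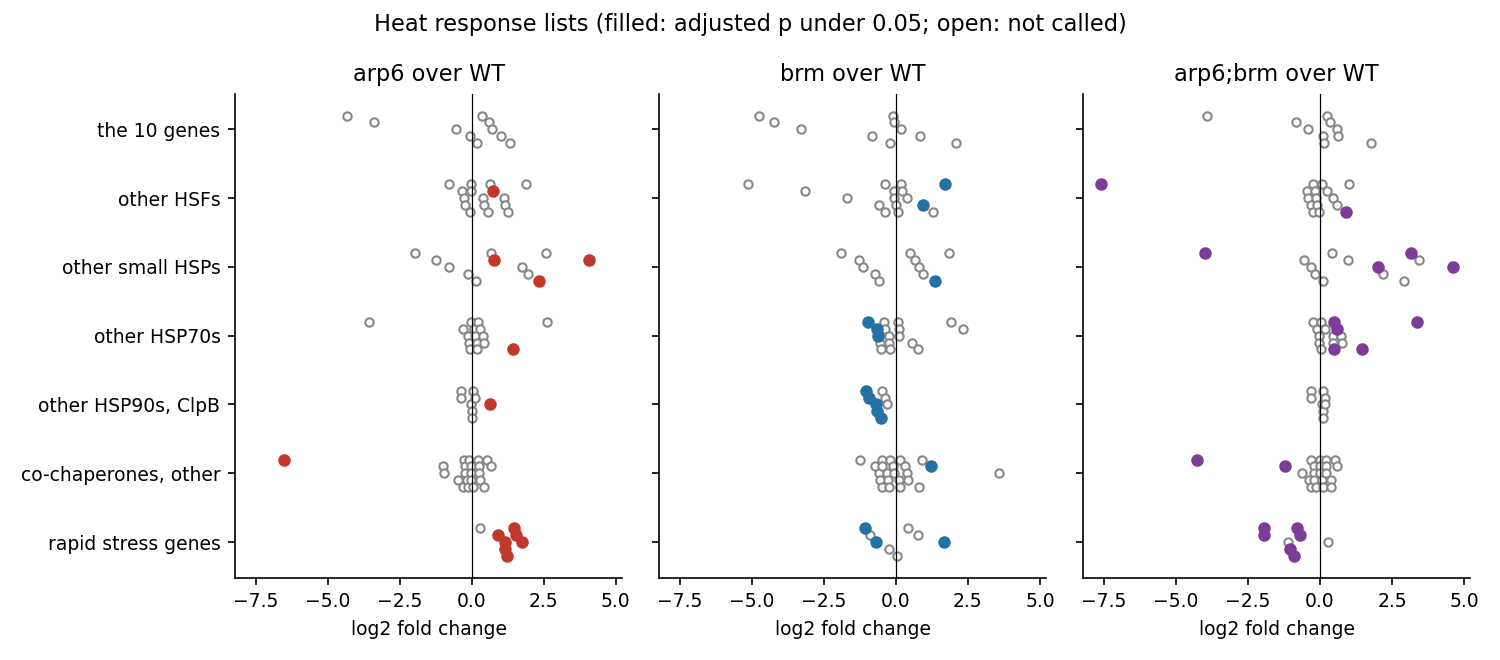
Log2 fold change over WT of each listed gene in the authors' deposited tables, by list, with arp6, brm and the double mutant from left to right. Filled points were called at an adjusted p under 0.05. The top row, the 10 genes, holds no filled point, while 7, 3 and 6 of the 8 rapid stress genes are filled. All lists were chosen with earlier results of these data known.

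At most of the 10 genes H2A.Z was present in WT and brm, and at several it was still called in arp6. The authors called peaks in each library. A peak overlapped 6 and 4 of the 10 genes in arp6 replicates 1 and 2, 10 and 9 in the brm replicates, and 7 and 9 in the WT replicates. Over all 27444 protein-coding genes the shares were 10.8% and 11.3% in arp6, 57.3% and 51.2% in brm, and 34.9% and 56.3% in WT. The mean number was 5.0 ± 1.41 in arp6 against 8.0 ± 1.41 in WT (SD, n = 2 each), a difference of -3.0. The exact permutation test, two-sided, gave p = 0.33, which is the lowest value 4 libraries in 2 groups can give. In brm the mean was 9.5 ± 0.707 against 8.0 ± 1.41 in WT (SD, n = 2 each), a difference of 1.5 with an exact permutation p of 0.667. That difference was 0.5 without WT replicate 1 and 2.5 without WT replicate 2. The peak thresholds of WT replicate 1 differed from those of the remaining 5 libraries, and the estimated fragment length was 164 bp in both arp6 libraries against 414 to 458 bp in the others, per the file headers. The part of either in these counts was not tested.

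With an overlap of at least 1 bp, both arp6 replicates had a peak at 4 of the 10 genes, HSFA2, HSP17.6C, HSP17.6II and HSP17.6A, against 3.75% of all genes. With an overlap of at least 200 bp these were 3, without HSP17.6II, against 3.46% of genes. Where peaks had to cover at least 0.5 of the gene span, a setting added after seeing the data, HSP17.6C alone was left, against 0.543% of genes. The median peak was 501 bp in both arp6 libraries, so this setting favours short genes such as HSP17.6C, at 901 bp. The share of all genes was not matched for length. The counts that follow use 1 bp. Both brm replicates had one at 9 of the 10, against 43.2% of all genes, and both WT replicates at 7 of the 10, against 31.1%. Of the 7 genes with a peak in both WT replicates these 4 had one in both arp6 replicates, against 9.74% of the 8534 such genes, and all 7 had one in both brm replicates, against 82.9%. The 4 were all among the 6 with an average log2 CPM under 0 in the arp6 table, a class in which 7.75% of genes had a peak in both arp6 replicates. In WT both replicates had a peak at 5 of these 6, against 46.0% of genes in that class. Of the 4 genes at or above 0, none had a peak in both arp6 replicates, against 2.60% of genes in that class, and 2 had one in both WT replicates, against 26.6%. With 10 genes, and HSP17.6II and HSP17.6A adjacent, these are counts for the named genes and no more. Both arp6 replicates also had a peak at 3 of 13 other small HSPs and 2 of 20 other heat shock factors. They had one at 0 of 17 other HSP70s, 0 of 8 other HSP90 and ClpB genes and 0 of 23 co-chaperones and other heat-induced genes. Of the other small HSPs, 9 of 13 had one in both WT replicates and 10 of 13 in both brm replicates.

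At HSFA2 a peak lay at chr2:11136134-11136871 in arp6 replicate 1 and chr2:11136142-11136945 in replicate 2, against chr2:11135511-11137114 and chr2:11135388-11137254 in the WT replicates. Peaks covered 34.0% and 37.1% of the gene in arp6, 72.9% and 59.3% in brm, and 68.7% and 75.2% in WT. The arp6 peaks lay inside the WT ones and were shorter.

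HSP17.6C was covered almost end to end in every library, at 100% and 97.6% in arp6, 100% in each brm and each WT replicate. HSP17.6II was covered at 100% and 10.1% in arp6, 100% and 84.2% in brm, and 96.9% and 100% in WT. HSP17.6A was covered at 73.0% and 41.4% in arp6 and 100% in each brm and WT library. The arp6 replicates thus differed most at HSP17.6II. In brm replicate 1 and WT replicate 1 a single peak, chr5:3882069-3886080 and chr5:3882258-3885821, ran over both class II genes.

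HSP70-4 and HSP101 had no peak in arp6 in either replicate. HSP70-4 was covered at 94.3% and 71.2% in brm and 92.9% and 85.1% in WT, along most of its length. At HSP101 the peaks covered 22.8% and 19.5% of the gene in brm and 22.2% and 26.2% in WT, at its high-coordinate end, away from the end where the neighbouring gene AT1G74300 overlaps its span.

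HSP21 was covered at 54.1% and 0% in arp6, 100% and 82.0% in brm and 100% in both WT libraries. HSP90.1 was covered at 24.5% and 0% in arp6, 52.2% and 49.7% in brm, and 0% and 55.3% in WT. Its brm and WT peaks lay at both ends of the gene and not in its middle, and its arp6 peak at the high-coordinate end. HSP18.2 had no arp6 peak, was covered at 94.7% and 78.0% in brm, and at 0% and 89.7% in WT. HSP17.4 had a peak in brm replicate 1 alone (96.7% covered). The span of HSP17.4 is overlapped by 2 other genes, AT3G46220 and AT3G07365, so this peak cannot be assigned to HSP17.4 alone. The genes missing from WT replicate 1 and present in replicate 2, HSP90.1 and HSP18.2, are those where the 2 WT libraries disagree.

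**Figure D3:**
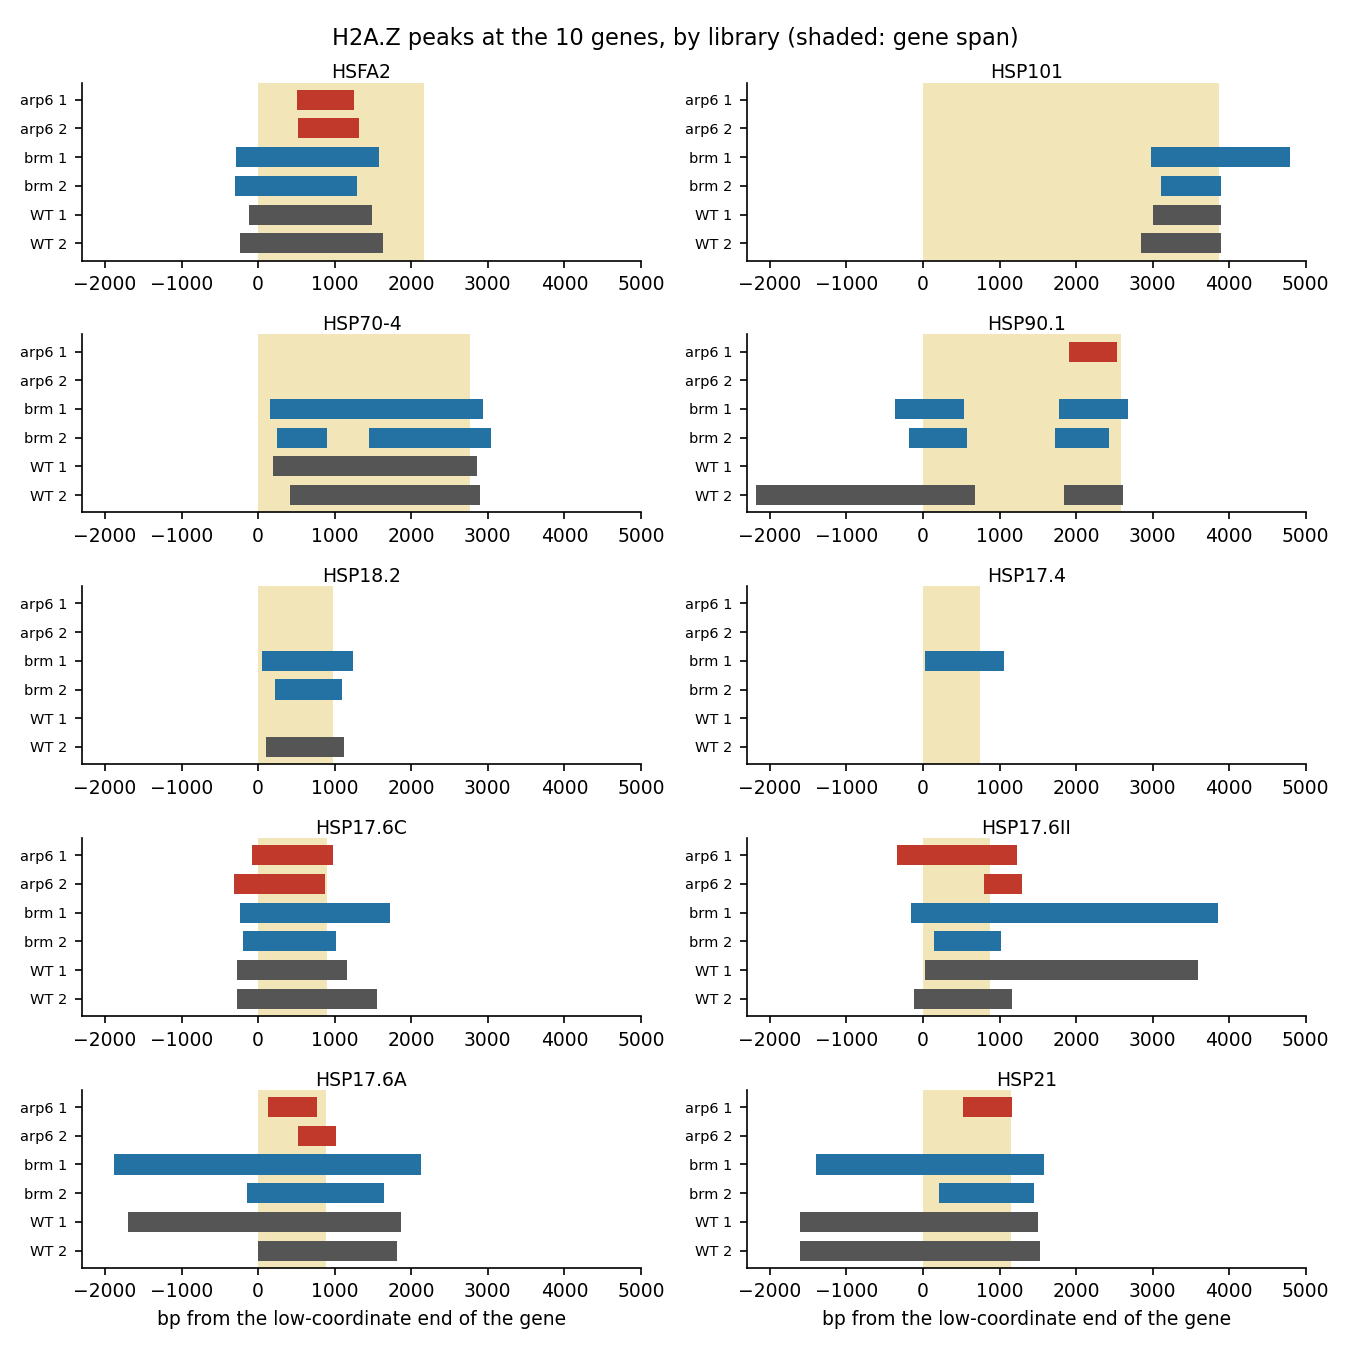
H2A.Z peaks at each of the 10 genes, as bars by library (arp6, brm and WT, replicates 1 and 2), on an axis in bp from the low-coordinate end of the gene, with the gene span shaded. In arp6, bars are drawn in both replicates at HSFA2, HSP17.6C, HSP17.6II and HSP17.6A, and none is drawn at HSP101, HSP70-4, HSP18.2 or HSP17.4.

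Few nucleosome positions at the 10 genes passed the threshold. Those that did were all higher in the mutant, but the share of higher calls over all genes was not counted. The median log2 fold changes over all genes also lay above 0, at 0.20 in arp6, 0.28 in brm and 0.24 in the double mutant, derived from the authors' deposited tables. The authors' deposited tables compare 1 pooled signal per genotype, so no spread between replicates is at hand. Positions were called at an FDR under 0.05 with a log2 fold change of 1 or more in either direction. By this rule 1 of 101 positions was called in arp6, 5 of 102 in brm and 2 of 103 in the double mutant, against 2.55%, 4.10% and 3.40% of positions in all genes, in the authors' deposited tables. The shares at the 10 genes, 0.990%, 4.90% and 1.94%, were near or under those backgrounds.

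HSP101 had a called position at about the same place in all 3 tables, centred at chr1:27938922 in arp6, chr1:27938912 in brm and chr1:27938902 in the double mutant. Its summit signal was 234 in arp6 against 86.0 in WT, 210 in brm against 89.99 in WT, and 218 in the double mutant against 88.0 in WT, in the authors' deposited tables. The FDR was 0.0422 in arp6, 0.0264 in brm and 0.0360 in the double mutant in the authors' deposited tables, so at an FDR under 0.01 HSP101 had no called position in any of them. The 3 tables share the WT pool, so the low WT signal enters each of them. In brm the other called positions were 1 at HSP70-4, with a signal of 328 in brm against 142 in WT, 2 at HSP90.1, at 272 and 326 in brm against 134 and 156 in WT, and 1 at HSP17.6A, at 172 in brm against 76.0 in WT, in the authors' deposited table. HSFA2 had 1 in the double mutant, chr2:11137192, with a signal of 324 in the double mutant against 164 in WT in the authors' deposited table. Its deposited log2 fold change was 1.73, and that of the HSP17.6A position in brm was 1.34. Both are larger than the printed signals alone give. The calls use the deposited fold change, and the cause of the gap was not tested.

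The median log2 fold change of the summit signal, taken over the positions of each gene and then over the 10 genes, was 0.27 in arp6, 0.37 in brm and 0.29 in the double mutant, derived from the authors' deposited tables. The medians over all genes were 0.20, 0.28 and 0.24. By the signal at a single base, the point value, the medians of the 10 genes were lower, at 0.11 in arp6, 0.23 in brm and 0.21 in the double mutant, derived from the authors' deposited tables. By the summit signal, 6, 7 and 9 of the 10 genes lay above the medians over all genes in arp6, brm and the double mutant. HSFA2 had the highest value in brm, 0.57, at the 95.1 percentile of genes, and stood at 0.38 in arp6 and 0.39 in the double mutant, derived from the authors' deposited tables. HSP17.6C had the lowest in arp6 at 0.00051, and HSP17.6II the lowest in brm at 0.13 and in the double mutant at 0.09, derived from the same deposited tables. In arp6 the median summit signal itself was below that of WT at HSP18.2 (154 against 172) and HSP17.4 (178 against 188). It was also below WT at HSP17.6C (172 against 202) and HSP17.6II (226 against 232), and above WT at the rest. A median fold change above 0 thus does not mean a higher median signal at each gene. Fuzziness, the spread of reads about a position, was called at 4, 12 and 8 positions of the 10 genes, or 3.96%, 11.8% and 7.77%, against 7.95%, 8.92% and 9.11% of positions in all genes in the authors' deposited tables.

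**Figure D4:**
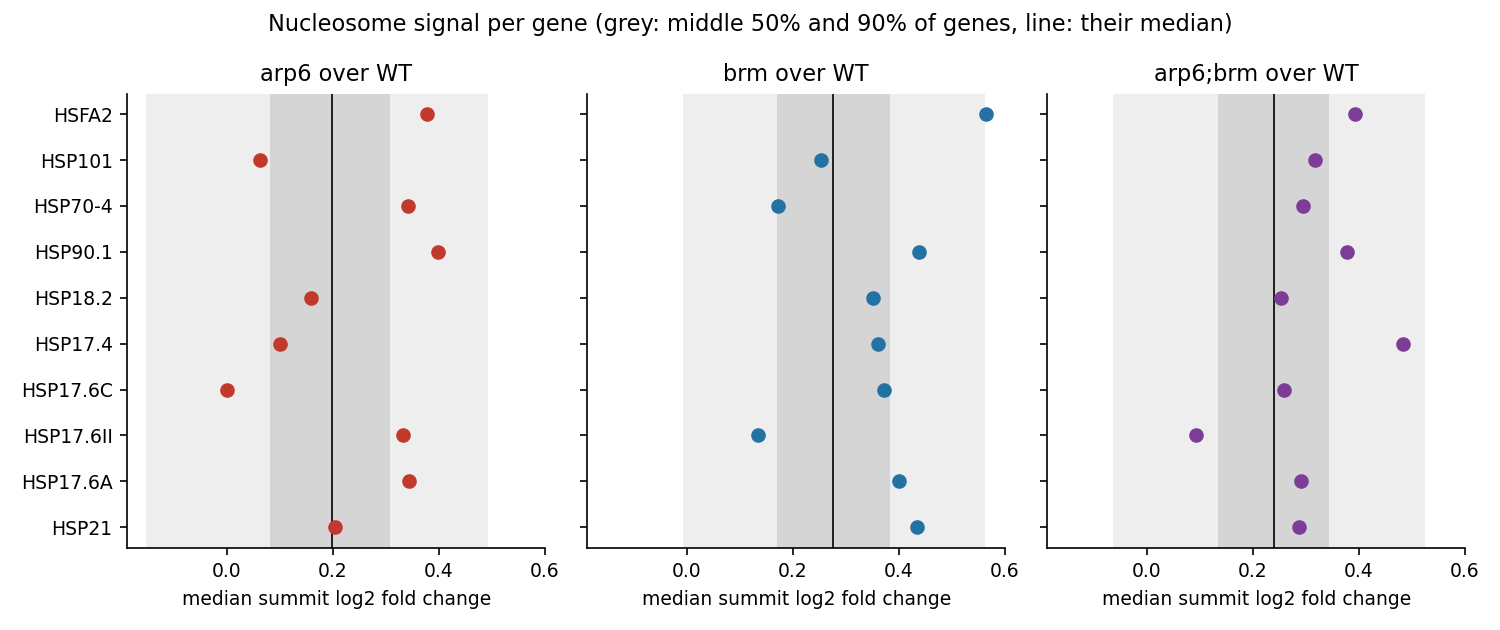
Median log2 fold change of the nucleosome summit signal per gene, from the authors' deposited tables, for arp6, brm and the double mutant over WT. The dark and light grey bands hold the middle 50% and 90% of all genes and the line is their median. Most points lie within the light band, and HSFA2 in brm, at 0.57, lies just past it.

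Deletions called in arp6 did not reach the 10 genes. No call overlapped or lay within 500 bp of any of them, against 2.96% of all genes overlapped. The calls rest on 1 arp6 DNA library, with no WT library beside it to show which calls hold in WT too. The nearest call was 2.72 kb from HSP70-4. Within 500 kb there were 14 calls at HSFA2, 8 at HSP70-4, 7 at HSP17.4 and 0 to 5 at the other 7 genes, and their part in the arp6 values was not tested.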

How the data were processed

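The submitters' processing notes name Bowtie2, TopHat2, HTSeq, edgeR, HOMER, SAMtools, BWA and the TAIR10 build, with no role or order. RNA-seq values are the authors' deposited log2 fold changes, average log2 CPM and edgeR p-values with adjusted p-values; 3 rows per table name no gene and hold 66.9%, 69.3% and 70.7% of the counts. H2A.Z peaks are the authors' HOMER positions per library, per the file headers. The deposited nucleosome tables give an occupancy signal, its log2 fold change, an FDR (adjusted p-value) and a fuzziness score. Deletions are deposited positions.

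Standard errors were taken as the log2 fold change over the normal quantile of its p, and CPM per group from the average and fold change. For 15392 genes, the 3 resulting WT levels spanned a median of 0.149 on the log2 scale. The overlap and call steps were tested on simulated data. Python 3.11.15, numpy 2.4.6, pandas 2.3.3, scipy 1.17.1 and matplotlib 3.10.9 were used. An overlap of 1 bp counted. Permutation p-values measure only the spread between these libraries.

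Gene spans came from RefSeq TAIR10.1, taken to share the nuclear coordinates of TAIR10. Of 3 forms of a check on that, tried in turn, none was decisive. Nucleosome positions within 25 bp of 54888 gene ends numbered 28.7 per 100 ends, against 30.7 at 100 bp inside and 30.6 at 100 bp outside but 28.8 at 200 bp inside. Their mean WT signal was 189 at the ends, against 205 and 198. Of 73 genes that fell by 5 or more (log2) in arp6, 16 overlapped a deletion call, against 14 and 12 with spans moved by 10 kb and 8 and 9 by 50 kb. The first showed little, and the other 2 differences were small. The table gives no strand, so windows at start sites were not used, and no sequence was given.

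The 10 genes and the lists were chosen with earlier results of these data known. Named were all 10, up to 8 called genes per list by size of change, and the 5 nearest to HSFA2. The rapid stress genes were an exception, with TCH3 alone named, which was not the largest change in arp6 or the double mutant.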

Additional observations from a re-analysis of the deposited data

How the results depend on the processing

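Across stricter thresholds, Bonferroni adjustment, a filter on low values and leaving out rows that name no gene, 0 of the 10 genes were called by edgeR in each table; at an adjusted p under 0.2, and at an unadjusted p under 0.05 (added after seeing the data), 1 was called in the double mutant, HSP101. At a nucleosome FDR under 0.01 the called positions were 0 in arp6, 1 in brm (at HSP70-4) and 0 in the double mutant, and with 500 bp on each side (added after seeing the data) 4 in the double mutant. By the point value in place of the summit value, the median log2 fold change of the 10 genes was 0.11 in arp6 and 0.23 in brm; the summit values of the whole tables lie above the point values (medians 0.15, 0.21 and 0.21 against 0.02, 0.09 and 0.08). The cause was not tested. Leaving out each ChIP library in turn gave a difference in genes with a peak of -4.0 to -2.0 for arp6 minus WT and 0.5 to 2.5 for brm minus WT. With the replicate block the differences were -3.0 (exact permutation p of 0.5, the smallest 2 pairs allow) and 1.5 (exact permutation p of 1). For RNA-seq and MNase-seq no paired analysis was possible because the tables hold no value per library, and no library could be left out there. Windows at the start site were not run, since the gene table gives no strand. None of the 6 genes with an average log2 CPM under 0 was called at any setting run here; of all genes under 0, 2.66%, 2.75% and 6.05% were called in arp6, brm and the double mutant, and the 4 genes at or above 0 were not called at an adjusted p under 0.05 either.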
